A study of Homo sapiens with 9 samples.

Results

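The IGF axis and imprinted growth genes were taken here as 10 genes, found by their Ensembl identifiers among the 60671 genes counted in the files: the growth factor IGF2, its receptors IGF1R and IGF2R, the binding protein IGFBP2, and the imprinted growth genes H19, CDKN1C, DLK1, MEG3, PEG3 and MEST. All 10 were found and all 10 passed the filter on low counts. They were followed in 9 RNA-seq libraries, in 3 groups of 3, of the established human cell line H295R, which was isolated from a tumour of the adrenal cortex. The first group carries a knockout of SGPL1 (KO), the second is labelled as overexpressing SGPL1 (OE), and the third is the line without a stated change (WT). SGPL1 encodes sphingosine-1-phosphate lyase, which breaks down the signalling lipid sphingosine-1-phosphate. All cells were untreated. No source used here gives the edit site in KO cells, the construct in OE cells or how many clones were used. The replicates of a group are called biological in the series' design, without a word on separate cultures, and every p-value rests on how far these libraries differ within groups.

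Imprinted genes are transcribed from the maternal or the paternal copy only. On chromosome 11p15 the paternal copy makes IGF2, a fetal growth factor, while the maternal copy makes the non-coding RNA H19 and the cell cycle inhibitor CDKN1C. On 14q32 the paternal copy makes DLK1, a membrane protein related to the Notch ligands, and the maternal copy makes the non-coding RNA MEG3. IGF2 signals through the tyrosine kinase receptor IGF1R and is cleared by IGF2R, which also carries mannose-6-phosphate proteins to lysosomes, while IGFBP2 holds IGFs outside the cell. Adrenocortical carcinomas are known for high IGF2, often with low H19 and CDKN1C, and DLK1 marks fetal and progenitor-like adrenocortical cells.

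Library totals ran from 8006873 to 10895080 counts. SGPL1 averaged 48.3 ± 5.05 counts scaled to a library of fixed size (CPM) in KO, 93.5 ± 10.7 CPM in the libraries labelled OE and 94.3 ± 9.64 CPM in WT (SD, n = 3 each). It was lower in KO than in WT (log2 fold change -0.97 ± 0.14 SE, edgeR adjusted p = 0.000105) and was not called in OE against WT (-0.01 ± 0.14, adjusted p = 0.966), so directions for OE are those of the label. All 10 markers of adrenocortical cells passed the filter, with a summed level of 2204.9 to 2608.3 CPM in KO, 2288.6 to 2707.8 CPM in OE and 1762.9 to 1970.5 CPM in WT. TH, DBH, PNMT and SLC18A1 of the 7 chromaffin markers had 0 counts in every library, as had PTPRC, CD3E and CD68 of the 6 leukocyte markers, LUM of the 7 fibroblast markers and TEK of the 5 endothelial markers. The summed level was 15.2 to 17.4 CPM in KO, 13.1 to 15.9 CPM in OE and 36.2 to 37.8 CPM in WT for chromaffin markers, of which CHGB made up most. It was 17.1 to 19.2 CPM in KO, 11.9 to 16.8 CPM in OE and 17.2 to 27.5 CPM in WT for fibroblast markers. By edgeR, 5 of the 10 adrenocortical markers were called higher in KO than in WT (9.16% of all 14150 genes tested) and 4 in OE (9.65%), with none of the 10 called lower, also at an unadjusted p under 0.05 or by DESeq2 or limma-voom. CHGB of the 2 tested chromaffin markers and COL3A1 of the 2 tested fibroblast markers were called lower in both KO and OE (9.6% and 11% of all genes tested). The other tested fibroblast marker, COL1A1, was at 0.18 in KO and -0.13 in OE against WT and was not called by edgeR. DESeq2 called 1 fibroblast marker higher in KO than in WT. The 51 tested genes around CHGB on its chromosome had a median log2 fold change of -0.76 in KO and -0.06 in OE against WT. Those around COL3A1 had 0.16 and -0.07. The part of these marker differences in the results was not tested. Leukocyte markers reached 3.39 CPM in KO, 2.44 CPM in OE and 2.6 CPM in WT, and endothelial markers 0.432 CPM in KO, 0.691 CPM in OE and 0.226 CPM in WT, at the highest. In bulk RNA, fewer cells that make a transcript and less of it per cell cannot be told apart.

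The libraries differed in how counts depended on gene length, and WT replicate 2 and OE replicate 2 stood apart in this. The slope of log2 CPM, relative to each gene's mean, on log2 exon length was 0.04 to 0.13 in KO. It was -0.07, -0.20 and -0.08 in OE replicates 1 to 3 and 0.06, -0.05 and 0.10 in WT replicates 1 to 3. Over 5 equal groups of genes by length, the median log2 fold change of OE against WT was 0.24 in the shortest and -0.29 in the longest, while for KO against WT it was -0.10 and 0.09. WT replicate 2 was the lowest WT library for 6 of the 10 genes (IGF2, H19, MEG3, PEG3, IGF1R and IGF2R), and OE replicate 2 the lowest OE library for 4 of them (IGF2, PEG3, IGF1R and IGF2R). Values with a correction for exon length, and with both of these libraries left out, are given beside the results whose call they change.

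IGF2 (ENSG00000167244, chromosome 11, 2129112 to 2141238, minus strand, GRCh38) was higher in KO and lower in OE than in WT. Its counts are a partial readout. Of its 6259 annotated exon bases, 72.1% are shared with other annotated genes, 70.7% with the unnamed ENSG00000284779 and 15.9% with the INS-IGF2 readthrough gene. Reads there fall on more than 1 gene and were not counted, and both of these genes had 0 counts in every library. The IGF2 counts therefore come from 1744 unshared bases, all but 9 of them within 4050 bases of the 5′ end of a span of 12127 bases. Splicing forms or promoters that skip these bases are not seen.

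By library, IGF2 had 109.5, 186.6 and 142.0 CPM in KO, 33.0, 11.3 and 16.5 CPM in OE, and 62.5, 19.7 and 83.5 CPM in WT. All KO libraries lay above all WT libraries, whereas OE replicate 1 lay above WT replicate 2, so OE and WT overlapped. The mean was 146.0 ± 38.7 CPM in KO, 20.3 ± 11.3 CPM in OE and 55.2 ± 32.5 CPM in WT. IGF2 rose in KO against WT by 1.40 ± 0.38 on the log2 scale, 2.64-fold (edgeR adjusted p = 0.0162). It fell in OE against WT, with a log2 fold change of -1.44 ± 0.40 (adjusted p = 0.0189), and OE stood 7.16-fold below KO (-2.84 ± 0.41, adjusted p = 6.34e-05). With DESeq2 the KO call was lost (adjusted p = 0.108), as it was when KO replicate 2 was left out (1.19, adjusted p = 0.0823). The OE call was lost with DESeq2 (0.0785), without WT replicate 1 (0.0728), WT replicate 3 (0.113), OE replicate 2 (0.0641) or OE replicate 3 (0.0643). With WT replicate 2 and OE replicate 2 both left out, the log2 fold change was 0.99 for KO against WT (adjusted p = 0.00342) and -1.56 for OE against WT (adjusted p = 0.000313).

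**Figure D1:**
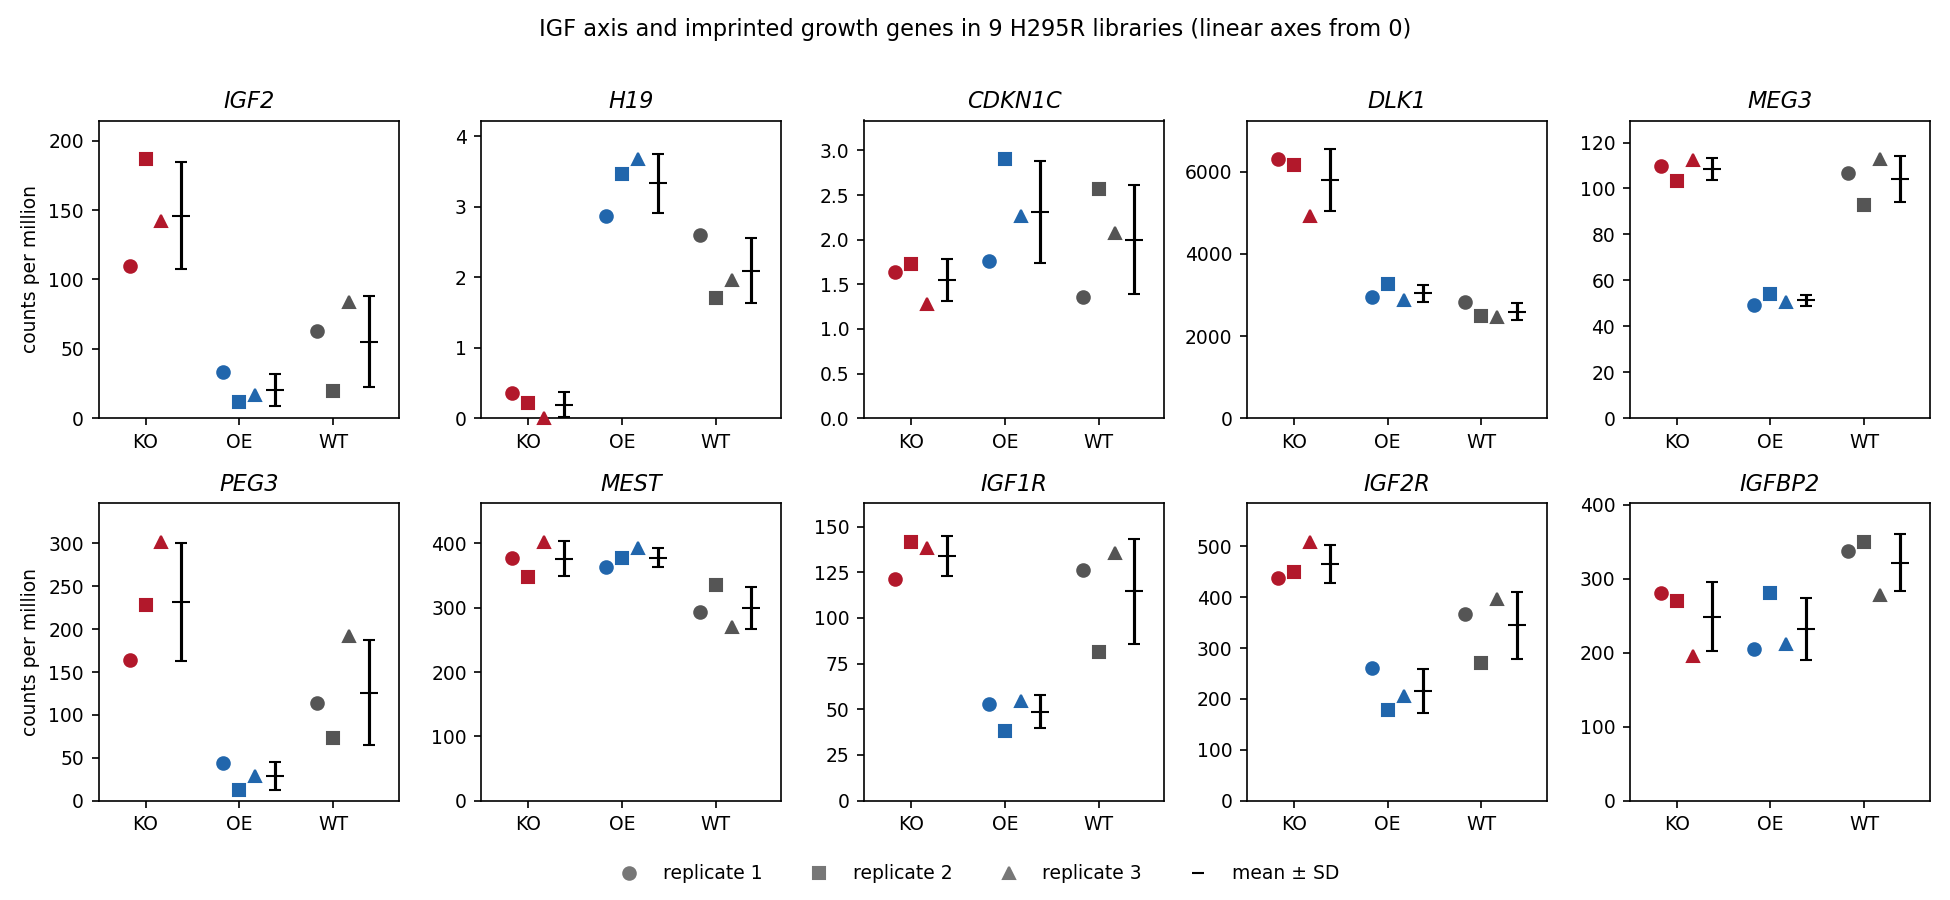
CPM (y axes, linear, each from 0) of the 10 genes in KO, OE and WT libraries. Symbols are the 3 replicates and bars the mean ± SD, and IGF2 and DLK1 are highest in KO, H19 is close to 0 in KO, and PEG3, IGF1R and MEG3 are lowest in OE.

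H19 (ENSG00000130600, chromosome 11, 1995176 to 2001470, minus strand), the maternally expressed non-coding RNA next to IGF2, was low in all groups and close to absent in KO. It had 3, 2 and 0 counts in KO, 26, 25 and 39 in OE, and 23, 14 and 17 in WT. The 5 counts of KO in all stood against 90 in OE and 54 in WT, and the KO libraries lay below every other library. In CPM this was 0.189 ± 0.177 in KO, 3.33 ± 0.42 in OE and 2.09 ± 0.459 in WT. The log2 fold change was -3.41 ± 0.64 for KO against WT (edgeR adjusted p = 0.00117) and 4.07 ± 0.61 for OE against KO (adjusted p = 9.31e-05). Both calls held under every alternative run, over ranges of -4.11 to -2.83 for KO against WT and 3.50 to 4.78 for OE against KO. OE libraries lay above WT libraries without overlap, but the difference was not called (0.67 ± 0.44, adjusted p = 0.299). Of the 2897 exon bases of H19, 7.35% are shared with small annotated genes, among them MIR675.

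H19 carries the hairpin of miR-675, MEST that of miR-335 and MEG3 that of miR-770. Small RNAs were not measured. MIR675 and MIR770 lie in exons of H19 and MEG3, so reads over them overlap more than 1 gene. MIR335 shares no exon base with MEST. MIR675, MIR335 and MIR770 had 0 counts, and only their hosts were followed. The RefSeq mature sequences (GRCh38.p14) are shown since they are the products whose hosts differed between groups, with bases 2 to 8, the seed that pairs with target mRNAs, in capitals.
hsa-miR-675-5p (chromosome 11, 1996800 to 1996822, minus strand, in H19): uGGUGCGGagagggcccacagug
hsa-miR-675-3p (chromosome 11, 1996768 to 1996787, minus strand, in H19): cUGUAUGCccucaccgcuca
hsa-miR-335-5p (chromosome 7, 130496126 to 130496148, plus strand, in MEST): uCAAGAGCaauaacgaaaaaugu
hsa-miR-335-3p (chromosome 7, 130496162 to 130496183, plus strand, in MEST): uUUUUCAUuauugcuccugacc
hsa-miR-770-5p (chromosome 14, 100852409 to 100852431, plus strand, in MEG3): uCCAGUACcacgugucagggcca
No 2 of these share a seed.

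Within a library, the ratio of H19 to IGF2 counts does not depend on library scaling. With 1 count added to each gene, since KO replicate 3 had no H19 count, its log2 was -7.87, -9.17 and -10.38 in KO, -3.48, -1.67 and -2.14 in OE, and -4.53, -3.43 and -5.34 in WT. KO libraries had less H19 per IGF2 count than every other library, and OE and WT overlapped. The mean log2 ratio differed by -4.71 between KO and WT and by 6.71 between OE and KO (p = 0.1 for each, two-sided exact permutation test, the smallest p that 3 against 3 allows). Without an added count, OE was 2.04 above WT (p = 0.2, exact permutation test). Over the 6 ratio tests of this family, with those of MEG3 to DLK1, the Benjamini-Hochberg adjusted values were 0.15 to 0.4.

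CDKN1C (ENSG00000129757, chromosome 11, 2883213 to 2885775, minus strand), the maternally expressed inhibitor of cyclin-dependent kinases, had 14, 16 and 12 counts in KO, 16, 21 and 24 in OE, and 12, 21 and 18 in WT. The KO and WT ranges overlapped, as did OE and WT. The log2 fold change was -0.36 for KO against WT, with a 95% interval of -1.27 to 0.55 (adjusted p = 0.626), and 0.20 for OE against WT, with an interval of -0.68 to 1.08 (adjusted p = 0.771). Differences within these intervals were not excluded at this depth. H19 and CDKN1C were the 2 lowest of the 10 genes per unshared kilobase. H19 had 0.0704 CPM per kb in KO, 1.24 in OE and 0.778 in WT, and CDKN1C 0.625 in KO, 0.93 in OE and 0.806 in WT. IGF2 had 83.7 CPM per kb in KO, 11.6 in OE and 31.7 in WT on the same scale.

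DLK1 (ENSG00000185559, chromosome 14, 100725705 to 100738224, plus strand) was the most abundant of the 10 genes in every group, with 1104.6 ± 144.1 CPM per kb of exon in KO, 578.8 ± 39.9 in OE and 494.7 ± 37.7 in WT. It had 6303.3, 6157.1 and 4927.1 CPM in KO, 2960.6, 3273.7 and 2876.9 CPM in OE, and 2823.7, 2492.6 and 2469.9 CPM in WT. The KO libraries lay far above the rest, and the OE libraries lay just above WT without overlap. DLK1 rose 2.23-fold in KO against WT (log2 fold change 1.16 ± 0.11, edgeR adjusted p = 1.78e-06), the smallest p among the 10 genes in that comparison. OE was below KO (-0.93 ± 0.11, adjusted p = 1.02e-05), and OE against WT was not called (0.23 ± 0.11, adjusted p = 0.15). By TPM (CPM divided by exon length and rescaled) it ranked 5, 5 and 7 among all genes in KO, 47, 60 and 50 in OE and 36, 49 and 40 in WT.

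MEG3 (ENSG00000214548, chromosome 14, 100779410 to 100861031, plus strand), the non-coding RNA made from the other parental copy of the DLK1 region, did not follow DLK1. It had 109.7, 103.1 and 112.3 CPM in KO, 49.1, 54.1 and 50.5 CPM in OE, and 106.8, 92.9 and 112.7 CPM in WT. KO and WT covered the same range, while every OE library was about 2-fold below. The log2 fold change was 0.06 for KO against WT (95% interval -0.20 to 0.31, adjusted p = 0.8), -1.02 ± 0.12 for OE against WT (edgeR adjusted p = 0.000114) and -1.08 ± 0.12 for OE against KO (adjusted p = 7.35e-06). MEG3 has 23224 annotated exon bases summed over its isoforms, the most of the 10 genes, and the 501 tested genes closest to it in length had a median of -0.41 in OE against WT. With the length correction OE was at -0.53 against WT (adjusted p = 0.00502) and at -0.53 against KO (adjusted p = 0.00204). The log2 ratio of MEG3 to DLK1 differed by -1.09 between KO and WT and by -1.25 between OE and WT (p = 0.1 for each, exact permutation test, the smallest possible). Between OE and KO the ratio differed by -0.15 (p = 0.4, exact permutation test). These ratios were not corrected for exon length, and DLK1 has 5247 exon bases. In OE against WT, the 501 genes nearest in length had medians of -0.41 for MEG3 and 0.00 for DLK1. In OE against KO these medians were -0.51 and -0.01. The part of the length trend in the ratios with OE was not tested.

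RefSeq promoters (250 bases before to 50 after a start) were at hand for 6 of the 10 genes: H19, MEG3, MEST, IGF1R, IGF2R and IGFBP2. They were searched on both strands for the cAMP response element TGACGTCA, which reads the same on both strands, the element CAAGGTCA of the adrenal factor NR5A1, and TATAAA. The H19 and MEG3 promoters are printed because H19 and MEG3 are the 2 non-coding RNAs among the 10 genes and were called in different comparisons against WT, with matches in capitals (GRCh38.p14, 5′ to 3′ in the direction of the gene).
H19 (chr11:2001217-2001516, minus strand): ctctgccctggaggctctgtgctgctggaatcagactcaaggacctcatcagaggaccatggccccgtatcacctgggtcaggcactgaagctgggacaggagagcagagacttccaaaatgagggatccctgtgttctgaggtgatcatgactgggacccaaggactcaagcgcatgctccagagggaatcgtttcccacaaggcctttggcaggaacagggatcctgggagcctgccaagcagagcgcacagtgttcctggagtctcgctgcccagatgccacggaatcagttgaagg
MEG3 (chr14:100825858-100826157, plus strand): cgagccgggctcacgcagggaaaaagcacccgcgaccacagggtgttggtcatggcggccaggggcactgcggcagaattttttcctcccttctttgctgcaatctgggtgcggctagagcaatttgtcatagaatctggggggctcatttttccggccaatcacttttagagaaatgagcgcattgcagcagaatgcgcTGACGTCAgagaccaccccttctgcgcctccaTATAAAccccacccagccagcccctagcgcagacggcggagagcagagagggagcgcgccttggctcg
The MEG3 window held TGACGTCA, found in 1.85% of all 35116 promoters of the table, and TATAAA, found in 11.5%. All 3 MEG3 entries, whose windows overlap, held both. The H19 window and those of MEST (5 entries), IGF1R, IGF2R and IGFBP2 (3 entries) held none of the 3 motifs, and CAAGGTCA occurs in 1.28% of all promoters. H19 had 6 CG dinucleotides in its window, MEG3 had 19, IGF1R 55 and IGF2R 41, beside a median of 14 over all promoters.

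PEG3 (ENSG00000198300, chromosome 19, 56810077 to 56840728, minus strand), a paternally expressed zinc finger protein, fell the most of the 10 genes in OE. It had 164.4, 227.8 and 301.8 CPM in KO, 44.5, 12 and 28.4 CPM in OE, and 113.6, 72.6 and 192.1 CPM in WT. Each OE library was below each library of the other groups, and KO and WT overlapped. The log2 fold change was -2.14 ± 0.37 for OE against WT, 4.41-fold lower (edgeR adjusted p = 0.00121), and -3.02 ± 0.37 for OE against KO (adjusted p = 1.64e-05). With the length correction the OE value against WT was -1.84 (adjusted p = 0.000257). KO against WT was 0.87 ± 0.34 and not called (adjusted p = 0.0878). With alternatives it ranged from 0.59 to 1.31 and passed under 7 of 19, among them limma-voom (0.0456), the length correction (0.86, 0.0238), KO and WT alone (0.0274), and without WT replicate 3 (1.31, 0.0127) or OE replicate 2 (0.0211). Of its 9769 exon bases, 50.9% gave no counts because they are shared with a transcript on the opposite strand or with ZIM2.

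MEST (ENSG00000106484, chromosome 7, 130486171 to 130506465, plus strand), a paternally expressed member of the hydrolase fold family, was slightly higher in both engineered groups. It had 377.5, 348.5 and 402.5 CPM in KO, 364.1, 377.4 and 392.7 CPM in OE, and 293.0, 335.3 and 270.8 CPM in WT. Every KO and OE library lay above every WT library, by small margins over WT replicate 2. The rise was 0.33 ± 0.11 in KO (edgeR adjusted p = 0.0466) and 0.34 ± 0.11 in OE (adjusted p = 0.0405), 1.26-fold in each. The call was lost under 10 of 19 alternatives in KO and 9 of 19 in OE, with adjusted p-values up to 0.163 and 0.184. These include KO against WT without WT replicate 1 (0.147), WT replicate 3 (0.163), any 1 KO replicate (0.069 to 0.161), OE replicate 1 (0.0564) or OE replicate 3 (0.0663). They include OE against WT without WT replicate 1 (0.133), WT replicate 3 (0.184), KO replicate 1 (0.0533), KO replicate 2 (0.0626) or any 1 OE replicate (0.0503 to 0.121).

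Both receptors of IGF2 were lower in OE and neither was called in KO against WT. IGF1R (ENSG00000140443, chromosome 15, 98648539 to 98964530, plus strand), the receptor that signals growth, had 121.6, 141.7 and 138.3 CPM in KO, 53.1, 38.4 and 54.6 CPM in OE, and 126.3, 81.6 and 135.7 CPM in WT. All OE libraries were below all others, and KO and WT overlapped. It fell 2.34-fold in OE against WT (log2 fold change -1.23 ± 0.18, edgeR adjusted p = 0.000419) and was 0.22 ± 0.17 for KO against WT (adjusted p = 0.42). IGF1R has 13941 exon bases. The 501 tested genes nearest in length had a median of -0.34 in OE against WT, and with the length correction IGF1R was at -0.82 (adjusted p = 0.000262).

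IGF2R (ENSG00000197081, chromosome 6, 159969082 to 160113507, plus strand), the receptor that removes IGF2, had 437.9, 449.1 and 508.8 CPM in KO, 261.7, 178.5 and 206.5 CPM in OE, and 367.6, 270.8 and 396.7 CPM in WT. The 3 groups did not overlap, with KO above WT and OE below it. OE against WT was -0.68 ± 0.15 (edgeR adjusted p = 0.00621), beside a median of -0.38 for the 501 genes nearest to its 17860 exon bases. With the length correction it was -0.22 and no longer called (adjusted p = 0.136). KO against WT was 0.43 ± 0.15 (adjusted p = 0.0567), and it passed under 8 of 19 alternatives, among them limma-voom (0.0424), the length correction (0.38, 0.011), and without WT replicate 3 (0.0305), OE replicate 1 (0.0367) or OE replicate 2 (0.025). OE against KO was -1.11 ± 0.15 (adjusted p = 4.3e-05), and -0.61 with the length correction, which was still called.

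IGFBP2 (ENSG00000115457, chromosome 2, 216632828 to 216664436, plus strand), a secreted protein that binds IGFs, was highest on average in WT. It had 280.7, 269.9 and 195.0 CPM in KO, 204.7, 280.2 and 211.4 CPM in OE, and 337.5, 349.7 and 277.2 CPM in WT. WT replicate 3 fell within the KO and OE ranges, so no 2 groups were apart. OE against WT was -0.47 ± 0.15 (edgeR adjusted p = 0.0389) and KO against WT -0.37 ± 0.15 (adjusted p = 0.104). The OE call was lost without WT replicate 1 (0.131), WT replicate 2 (0.0933), KO replicate 2 (0.0585), OE replicate 1 (0.124) or OE replicate 3 (0.131). The KO value passed without OE replicate 2 (0.0462), with library totals (0.046) and with no filter (0.0473). IGFBP2 has 4742 exon bases, and its OE value with the length correction was -0.46.

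Counted over the 10 genes, 3 rose in KO against WT (IGF2, DLK1 and MEST) and 1 fell (H19). Over all 14150 genes tested, 9.16% rose and 9.6% fell, 18.8% in all. The median log2 fold change of the 10 genes was 0.28, beside -0.01 over all genes tested. Without KO replicate 2 only DLK1 of the 10 rose, and without OE replicate 2 there were 5 that rose and 2 that fell. The share of all genes called was 12.2% without KO replicate 2 and 22.1% without OE replicate 2. Each KO library lay above each WT library for 4 of the 10 (background 17.6%) and below for 1 (17.6%).

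In OE against WT, 1 of the 10 rose (MEST) and 6 fell (PEG3, IGF2, IGF1R, MEG3, IGF2R and IGFBP2), beside 9.65% that rose and 11% that fell of all genes tested, 20.7% in all. The median was -0.57 over the 10 genes and -0.01 over all. Scaled by library totals without TMM, all genes had a median of -0.13, 25.9% of all calls were rises against 46.7% with TMM, and MEST was not called. With the length correction 61.1% of calls were rises, and 5 of the 10 genes fell. The 1 rise was lost without WT replicate 1 or 3, KO replicate 1 or 2, or any 1 OE replicate. Of the falls, IGF2 and IGFBP2 were both lost without WT replicate 1 or OE replicate 3. IGF2 was also lost without WT replicate 3 or OE replicate 2. IGFBP2 was also lost without WT replicate 2, KO replicate 2 or OE replicate 1. With DESeq2 5 of the 10 fell. The share of all genes called was 9.54% without WT replicate 1, 8.6% without WT replicate 3 and 12.7% without OE replicate 2. The 10 genes were separated upwards in 3 cases (background 17.8%) and downwards in 4 (18.6%).

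In OE against KO, 1 of the 10 rose (H19) and 6 fell (PEG3, IGF2, IGF1R, IGF2R, MEG3 and DLK1), beside 19% and 20.6% of all genes, 39.7% in all. OE libraries lay above all KO libraries for 2 of the 10 (background 25.3%) and below for 6 (26.4%). The median was -1.01, against 0.00 over all genes tested. MEST (0.01), IGFBP2 (-0.10) and CDKN1C (0.56) were not called. The 3 comparisons share libraries and are not independent of each other. The 51 tested genes around each of the 10 on its chromosome had medians between -0.16 and 0.09 for KO against WT. For OE against WT these medians lay between -0.19 and 0.07. In these 2 comparisons none of the 10 lay among neighbours that had shifted by as much as 0.2. In OE against KO the medians reached -0.22 around IGF2R and 0.23 around H19.

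**Figure D2:**
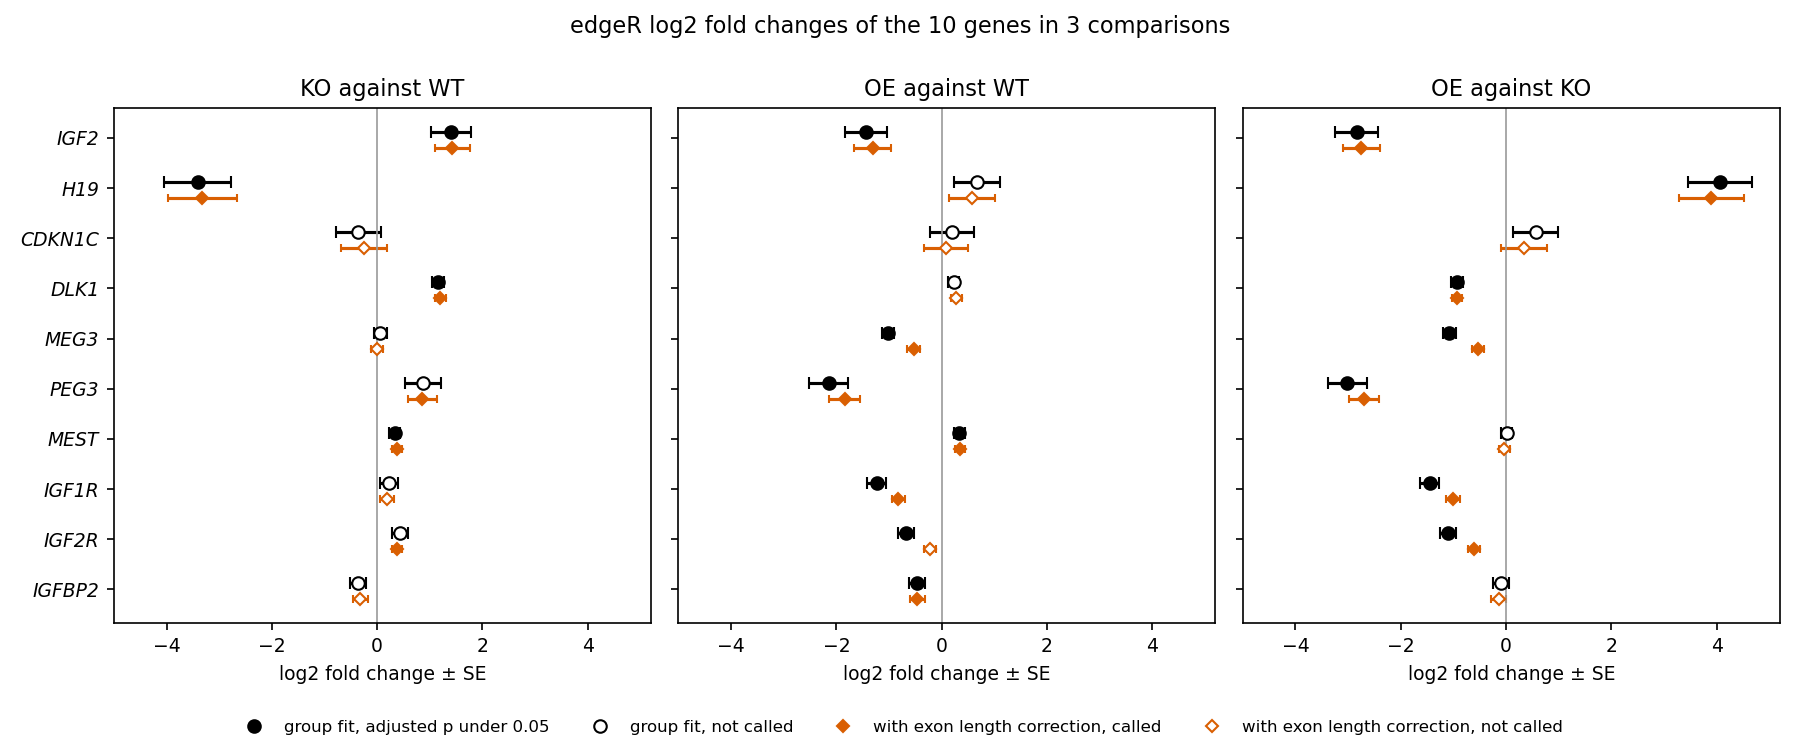
Log2 fold change ± SE (x axes) of the 10 genes in 3 comparisons, from the edgeR group fit (circles) and with a correction for exon length (diamonds). Filled symbols passed an adjusted p of 0.05, and IGF2R in OE against WT is the gene whose call is lost with the correction.

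**Figure D3:**
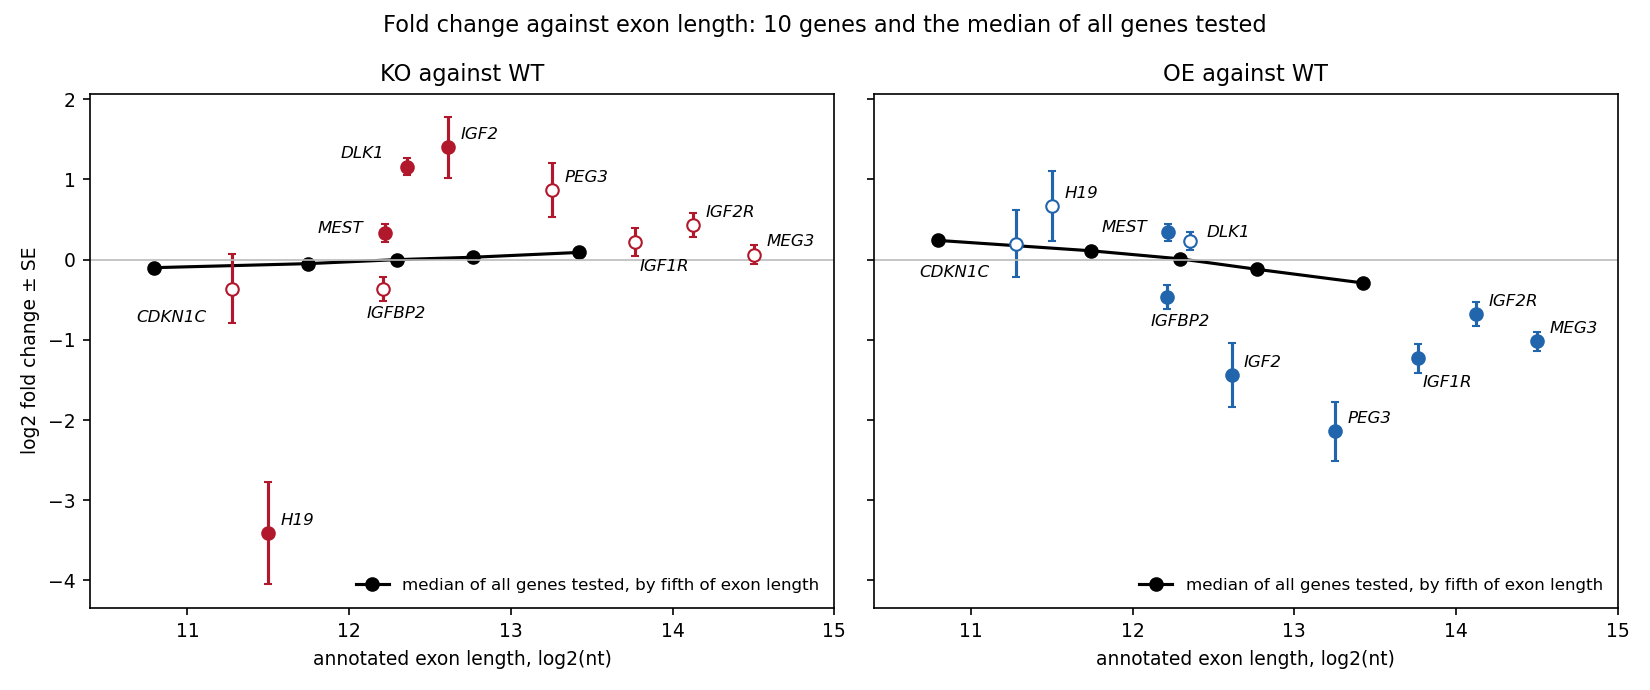
Log2 fold change ± SE (y axes) of the 10 genes against log2 annotated exon length (x axes), with the median of all genes tested in 5 equal groups by length (black line). In OE against WT the line falls from 0.24 to -0.29, and IGF1R, IGF2R and MEG3, the longest genes, lie below it; filled points passed an adjusted p of 0.05.

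Of 16 further genes of the IGF axis (ligands, receptors, binding proteins and their regulators), 7 passed the filter. In KO against WT 3 rose (IGFBP7, STC1 and INSR) and 2 fell (IGFBP3 and IGFBP6), with a median of -0.35. The counts of this list and of every list below stand beside the shares of all genes tested. These were 9.16% higher and 9.6% lower in KO against WT, and 9.65% and 11% in OE against WT. In OE against KO they were 19% and 20.6%. IGFBP7, a secreted protein that binds IGFs weakly and also insulin, had 158.3, 160.8 and 143.6 CPM in KO, 22.2, 22.0 and 20.4 CPM in OE, and 26.1, 30.1 and 24.4 CPM in WT. Every KO library was over 4 times the highest library of the other groups. Its log2 fold change was 2.52 ± 0.13 in KO against WT (edgeR adjusted p = 2.49e-09) and -0.32 in OE against WT (adjusted p = 0.107). IGFBP3, the main IGF carrier in serum, went the other way, with 2.34, 4.11 and 6.20 CPM in KO, 14.1, 11.6 and 9.59 CPM in OE, and 26.9, 27.9 and 23.9 CPM in WT. The 3 groups did not overlap, and IGFBP3 fell in KO by 2.62 ± 0.26 (adjusted p = 3.12e-06) and in OE by 1.16 ± 0.24 on the log2 scale (adjusted p = 0.00363).

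STC1, a secreted protein that inhibits the protease that frees IGFs from binding proteins, averaged 12.8 ± 2.92 CPM in KO, 3.21 ± 0.504 CPM in OE and 3.86 ± 0.364 CPM in WT, a rise of 1.73 ± 0.25 in KO against WT (adjusted p = 0.000118). IGFBP6, which prefers IGF2 over IGF1, averaged 2.01 ± 0.757 CPM in KO, 5.2 ± 0.853 CPM in OE and 5.21 ± 1.18 CPM in WT (-1.38 ± 0.34 in KO against WT, adjusted p = 0.00924, and adjusted p = 0.0536 without KO replicate 2). The insulin receptor INSR rose by 0.47 ± 0.13 in KO against WT (adjusted p = 0.0192) and was lower in OE than in KO (-0.71 ± 0.13, adjusted p = 0.000581, and -0.34 with the length correction, still called). Its value in KO against WT was not checked under the alternatives. For OE against WT, IGFBP3 was the 1 of the 7 genes called (median -0.25), and in OE against KO 3 rose and 3 fell (median 0.37).

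**Figure D4:**
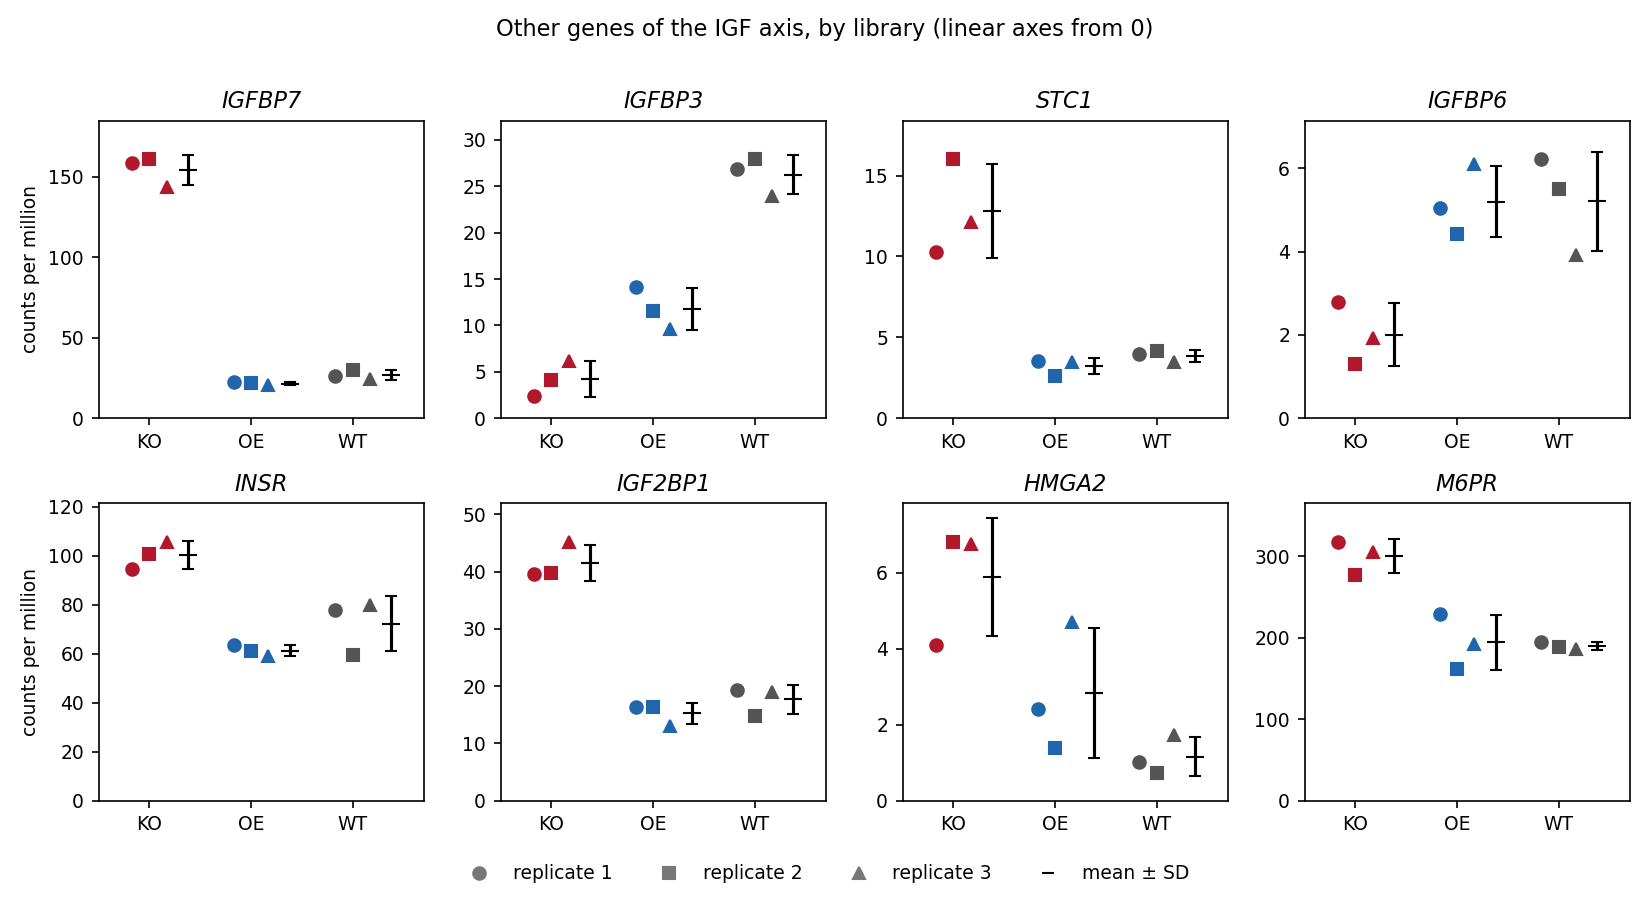
CPM (y axes, linear, each from 0) of 8 other genes of the IGF axis in KO, OE and WT libraries, with 3 replicates per group and the mean ± SD. IGFBP7 is at 143.6 to 160.8 CPM in KO and at most 30.1 CPM elsewhere, while IGFBP3 is lowest in KO.

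Genes that act on IGF2 RNA or its promoters were next. Of 12, 7 passed the filter, and in KO against WT 2 rose and none of the 7 fell (median 0.44, with 1 lower at an unadjusted p under 0.05 and 0 by DESeq2 or limma-voom). IGF2BP1, which binds and stabilises IGF2 and H19 transcripts among others, had 39.6, 39.7 and 45.2 CPM in KO, 16.3, 16.3 and 13.1 CPM in OE, and 19.3, 14.8 and 19 CPM in WT, with KO above all other libraries. It rose by 1.23 ± 0.16 in KO against WT (edgeR adjusted p = 5.55e-05). HMGA2, a chromatin protein that acts upstream of PLAG1 and IGF2, averaged 5.88 ± 1.55 CPM in KO, 2.83 ± 1.70 CPM in OE and 1.16 ± 0.511 CPM in WT, a rise of 2.33 ± 0.46 in KO against WT (adjusted p = 0.00166). Its relative HMGA1 rose in OE against WT (0.85 ± 0.19, adjusted p = 0.00613), and PLAGL2 was at -0.52 (adjusted p = 0.049), a call lost with the length correction (-0.44, adjusted p = 0.0747), with DESeq2 (0.057), limma-voom (0.0658) or OE and WT alone (0.082), and without WT replicate 1 or 3 or any 1 KO or OE replicate, with adjusted p up to 0.251 (median of the list -0.18). IGF2BP3 was lower in OE than in KO (-1.16 ± 0.27, adjusted p = 0.00308), where 1 gene rose and 3 fell.

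Downstream of the receptors, 25 of the 27 genes in the list passed the filter, and 2 of the 25 were called in KO against WT, beside 18.8% of all genes tested. GAB1, an adaptor of receptor tyrosine kinases, was called higher (0.73 ± 0.23, edgeR adjusted p = 0.0345) and GRB10, an imprinted inhibitor of insulin and IGF signalling, lower (-1.85 ± 0.57, adjusted p = 0.0302, at 0.214 to 0.864 CPM in KO and 0.856 to 2.53 CPM in WT). The median of the list was 0.09. The GAB1 call was lost with library totals (adjusted p = 0.0635) and without any 1 WT replicate or KO replicate 2 or 3 (adjusted p up to 0.178), and that of GRB10 with limma-voom (0.059) and without WT replicate 1 or 3 or KO replicate 1 or 3 (up to 0.126). The OE libraries had 1 gene higher and 5 lower than WT (median -0.26), beside 9.65% higher and 11% lower of all genes tested. The receptor substrate IRS2 had 279.4, 279.9 and 285.8 CPM in OE against 475.9, 328.4 and 466.7 CPM in WT, a log2 fold change of -0.59 ± 0.13 (adjusted p = 0.00559), and -0.35 with the length correction (adjusted p = 0.0282). SOS1, the exchange factor that activates RAS, was at -0.94 ± 0.22 (adjusted p = 0.00716), RPTOR, a subunit of the growth-sensing complex mTORC1, at -0.62 ± 0.17 (adjusted p = 0.0174, lost with the length correction, 0.188, and without WT replicate 1, 0.0935, WT replicate 3, 0.0833, or OE replicate 3, 0.0751), and GRB14, an inhibitor of the insulin receptor, at 0.58 ± 0.12 (adjusted p = 0.00391). Between OE and KO 3 rose and 9 fell, beside 19% and 20.6% of all genes tested. Among the falls were the substrate IRS1 (-1.36 ± 0.22, adjusted p = 0.000148) and MTOR (-0.90 ± 0.16, adjusted p = 0.000383, and -0.50 with the length correction). GRB10 was higher (2.82 ± 0.54, adjusted p = 0.000658).

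IGF2R shares its cargo route with M6PR, the smaller mannose-6-phosphate receptor. M6PR had 317.5, 277.3 and 305.6 CPM in KO, 228.4, 161.4 and 192.4 CPM in OE, and 194.7, 188.7 and 185.5 CPM in WT. KO was above every other library, and M6PR rose by 0.66 ± 0.12 in KO against WT (edgeR adjusted p = 0.00119). It was the 1 gene called of the 7 in its list in KO against WT (median 0.17), and none of the 7 was called by edgeR in OE against WT (median -0.07), with 2 at an unadjusted p under 0.05 and 0 by DESeq2 or limma-voom. Between OE and KO 1 rose and 3 fell (median -0.24), M6PR among the falls (-0.63 ± 0.12, adjusted p = 0.0009).

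Among 7 other inhibitors of cyclin-dependent kinases, beside CDKN1C, CDKN1A (p21), of the same family as CDKN1C and CDKN1B (p27), was lower in both engineered groups. It had 117.5, 110.7 and 99.9 CPM in KO, 122.9, 135.0 and 118.2 CPM in OE, and 193.6, 187.6 and 160.2 CPM in WT. WT was above all other libraries, with log2 fold changes of -0.72 ± 0.12 in KO (edgeR adjusted p = 0.000404) and -0.53 ± 0.12 in OE (adjusted p = 0.00669). CDKN2D (p19) was the 1 that rose, by 0.68 ± 0.19 in KO (adjusted p = 0.0202) and 0.59 ± 0.19 in OE (adjusted p = 0.0406). The CDKN2D call was lost in KO without WT replicate 1 or 3 or KO replicate 1 or 3 (adjusted p up to 0.0717), and in OE without WT replicate 1 or 3, KO replicate 2 or OE replicate 2 (up to 0.186). In OE it was also lost with the length correction (0.41, adjusted p = 0.0801), library totals (0.0815), limma-voom (0.0584), OE and WT alone (0.0665), and with WT and OE replicate 2 both left out (0.44, adjusted p = 0.0918). CDKN1B was not called in KO (0.24) or OE (0.06) against WT. The median of the 7 was 0.24 in KO and 0.06 in OE. Relative to KO, CDKN3 was higher in OE (0.45, adjusted p = 0.019) and CDKN2C lower (-0.31, adjusted p = 0.0441). The CDKN3 call was lost with the length correction (0.16, adjusted p = 0.262) and without KO replicate 2 or OE replicate 2 (adjusted p up to 0.0904). That of CDKN2C was stronger with the length correction (-0.48, adjusted p = 0.000656) and lost with DESeq2 (0.0508), DESeq2 size factors (0.0544) or no filter (0.0512), and without WT replicate 1, KO replicate 1 or 2, or OE replicate 1 or 3 (up to 0.152).

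DLK1 resembles the ligands of the Notch receptors, and 14 of 16 Notch pathway genes passed the filter. In KO against WT 1 rose and 5 fell (median -0.17), beside 9.16% and 9.6% of all genes tested. The receptor NOTCH1 had 0.467, 1.3 and 0.749 CPM in KO, 5.50, 4.43 and 5.08 CPM in OE, and 14.5, 8.31 and 15.9 CPM in WT. The 3 groups did not overlap, and the log2 fold change was -3.91 ± 0.36 in KO (edgeR adjusted p = 1.47e-06) and -1.36 ± 0.29 in OE (adjusted p = 0.00451). The 51 genes around NOTCH1 had a median of -0.52 in KO against WT, as those around MAML1, a Notch coactivator, had -1.0. Those around the Notch ligand JAG1 had -0.75. JAG1 was at -1.19 ± 0.36 (edgeR adjusted p = 0.0292), a value not checked under the alternatives. MAML1 itself was at -0.85 ± 0.18 (adjusted p = 0.00298), the inhibitory ligand DLL3 at -1.65 ± 0.35 (adjusted p = 0.00279) and the target gene HEY2 at -0.84 ± 0.16 (adjusted p = 0.00154). NOTCH2 was the gene that rose in KO against WT (0.84 ± 0.21, adjusted p = 0.00939), a value not checked under the alternatives.

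Against WT, 2 Notch genes rose and 3 fell in OE (median -0.31). NOTCH3 fell by 1.87 ± 0.38 on the log2 scale (edgeR adjusted p = 0.00336), and NOTCH2 was at -0.62 ± 0.21 (adjusted p = 0.0476). OE and WT overlapped for NOTCH2, and the 501 tested genes nearest to its 19930 exon bases had a median of -0.41. This NOTCH2 value was not checked under the alternatives. DLL3 was at 0.88 ± 0.29 (adjusted p = 0.043) and the target HES1 at 0.81 ± 0.25 (adjusted p = 0.0287). The DLL3 call was lost without WT replicate 1 or 3, KO replicate 2, or OE replicate 1 or 2 (adjusted p up to 0.186), and that of HES1 without WT replicate 1 or 3 or OE replicate 2 (up to 0.14). With WT and OE replicate 2 both left out neither was called (DLL3 0.84, adjusted p = 0.0878, and HES1 0.67, adjusted p = 0.0597), and DLL3 was also lost with DESeq2 (0.054) and library totals (0.0697). Relative to KO, 4 rose and 2 fell in OE (median 0.43), beside 19% and 20.6% of all genes tested. DLL3 was at 2.53, NOTCH1 at 2.55, NOTCH2 at -1.46 (-0.94 with the length correction) and NOTCH3 at -1.61.

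The neighbours of IGF2, H19 and CDKN1C on 11p15 were followed as well. Of 21 further genes of the region, 9 passed the filter. In KO against WT none of the 9 rose and 3 fell by edgeR, beside 9.16% and 9.6% of all genes tested. The median was -0.29, with 0 higher also at an unadjusted p under 0.05 or by DESeq2 or limma-voom. Each KO library lay below each WT library for 5 of the 9 and above for 0 (background 17.6% each). OSBPL5, a lipid transfer protein gene at the end of the region, had 0 counts in all KO libraries, against 2.75, 5.12 and 1.5 CPM in OE and 3.17, 1.96 and 1.5 CPM in WT. Against a floor of 3 counts per library, it was at least 6.65-fold lower in KO than in WT, and OE was at least 9.41-fold above KO (edgeR adjusted p = 0.000443 and 0.000101). SLC22A18, a membrane transporter gene next to CDKN1C, had 1.28, 1.08 and 1.5 CPM in KO, 2.64, 3.32 and 2.63 CPM in OE, and 2.04, 3.55 and 3.91 CPM in WT. KO was below all others (-1.29 ± 0.40 against WT, adjusted p = 0.0334, a call lost with DESeq2, 0.0529, or limma-voom, 0.0541, with WT and OE replicate 2 both left out, 0.0807, and without WT replicate 2 or 3 or any 1 KO replicate, with adjusted p up to 0.121). The tetraspanin CD81 was at -0.51 ± 0.16 (adjusted p = 0.0309), lost without WT replicate 1 or 2 or KO replicate 2 or 3 (adjusted p up to 0.148).

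KCNQ1OT1, the non-coding RNA of the CDKN1C domain, made from the paternal copy, had 3.97, 2.16 and 3.42 CPM in KO, 1.65, 0.553 and 0.658 CPM in OE, and 2.49, 2.20 and 1.38 CPM in WT. It was not called in KO (0.65 ± 0.45, adjusted p = 0.358) or OE (-1.06 ± 0.51, adjusted p = 0.147) against WT, but OE was below KO (-1.71 ± 0.49, edgeR adjusted p = 0.0105, and 0.0531 with the length correction). LSP1 (-0.29), MRPL23 (0.35), TSSC4 (0.02), NAP1L4 (0.02) and CARS1 (-0.31) were not called in KO against WT. LSP1 passed there with library totals (-0.34, adjusted p = 0.0406) and with WT and OE replicate 2 both left out (-0.31, adjusted p = 0.0412). None of the 9 genes was called by edgeR in OE against WT (median 0.02), 1 had an unadjusted p under 0.05, and DESeq2 and limma-voom called 0. LSP1 was at -0.22, MRPL23 at 0.60, TSSC4 at 0.55, CD81 at -0.10, SLC22A18 at -0.15 and OSBPL5 at 0.47, while NAP1L4 (0.07) and CARS1 (0.02) lay close to 0 and changed sign with the scaling. MRPL23 passed without WT replicate 2, at 0.89 in KO (adjusted p = 0.0356) and 1.16 in OE (adjusted p = 0.00608), and with WT and OE replicate 2 both left out, at 0.89 in KO (adjusted p = 0.00581) and 0.88 in OE (adjusted p = 0.0108). LSP1 passed in OE with library totals (-0.34, adjusted p = 0.0387), and KCNQ1OT1 in OE without OE replicate 1 (-1.70, adjusted p = 0.0498). In OE against KO 3 rose, OSBPL5, SLC22A18 (1.14) and CD81 (0.42), and KCNQ1OT1 fell (median 0.33). The SLC22A18 call was lost without any 1 KO or OE replicate (adjusted p up to 0.105), and that of CD81 without WT replicate 1, KO replicate 2 or 3, or OE replicate 2 or 3 (up to 0.213). With WT and OE replicate 2 both left out neither was called (SLC22A18 1.05, adjusted p = 0.0959, and CD81 0.24, adjusted p = 0.164). SLC22A18 was also lost with DESeq2 (0.061) and no filter (0.0558), and CD81 with limma-voom (0.0527) and library totals (0.0744). CARS1 (0.33) passed with the length correction (0.67, adjusted p = 0.0117). TSSC4 passed without KO replicate 2 (0.025) or OE replicate 3 (0.0333). With no filter MRPL23 (0.62, adjusted p = 0.00955) and TSSC4 (0.57, adjusted p = 0.0194) passed in OE against WT, and TSSC4 (0.53, adjusted p = 0.0201) in OE against KO. IGF2-AS, antisense to IGF2, had 8 to 16 counts in KO, 4 to 5 in OE and 3 to 9 in WT.

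On 14q32, 4 of 11 further genes passed the filter, and none of the 4 was called by edgeR, DESeq2 or limma-voom in KO against WT, where DLK1 rose (1 of the 4 had an unadjusted p under 0.05). The median was -0.31 (MEG8 at -0.19, MEG9 at -1.15, WDR25 at -0.44 and PPP2R5C at -0.03). The non-coding RNAs made from the maternal copy went different ways in OE against WT. MEG8 had 23.0, 19.3 and 18.9 CPM in KO, 36.0, 85.6 and 52.5 CPM in OE, and 25.3, 28.1 and 16.4 CPM in WT. Every OE library was above all others, a rise of 1.31 ± 0.26 against WT (edgeR adjusted p = 0.00273). MEG9 had 0.934, 0.648 and 1.28 CPM in KO, 0.440, 0.415 and 0.0941 CPM in OE, and 2.60, 1.96 and 1.84 CPM in WT. The groups did not overlap, and MEG9 fell in OE against WT by 2.77 ± 0.61 on the log2 scale (adjusted p = 0.00545). MEG3 and MEG9 were thus lower in OE and MEG8 higher, with WDR25 (0.50) and PPP2R5C (0.01) not called. With the length correction PPP2R5C was called higher in OE, at 0.40 against WT (adjusted p = 0.0158) and 0.50 against KO (adjusted p = 0.00165, 0.04 without it). In OE against KO, MEG8 (1.5) and WDR25 (0.94, adjusted p = 0.00838) rose, and MEG9 was at -1.62 (adjusted p = 0.0598).

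**Figure D5:**
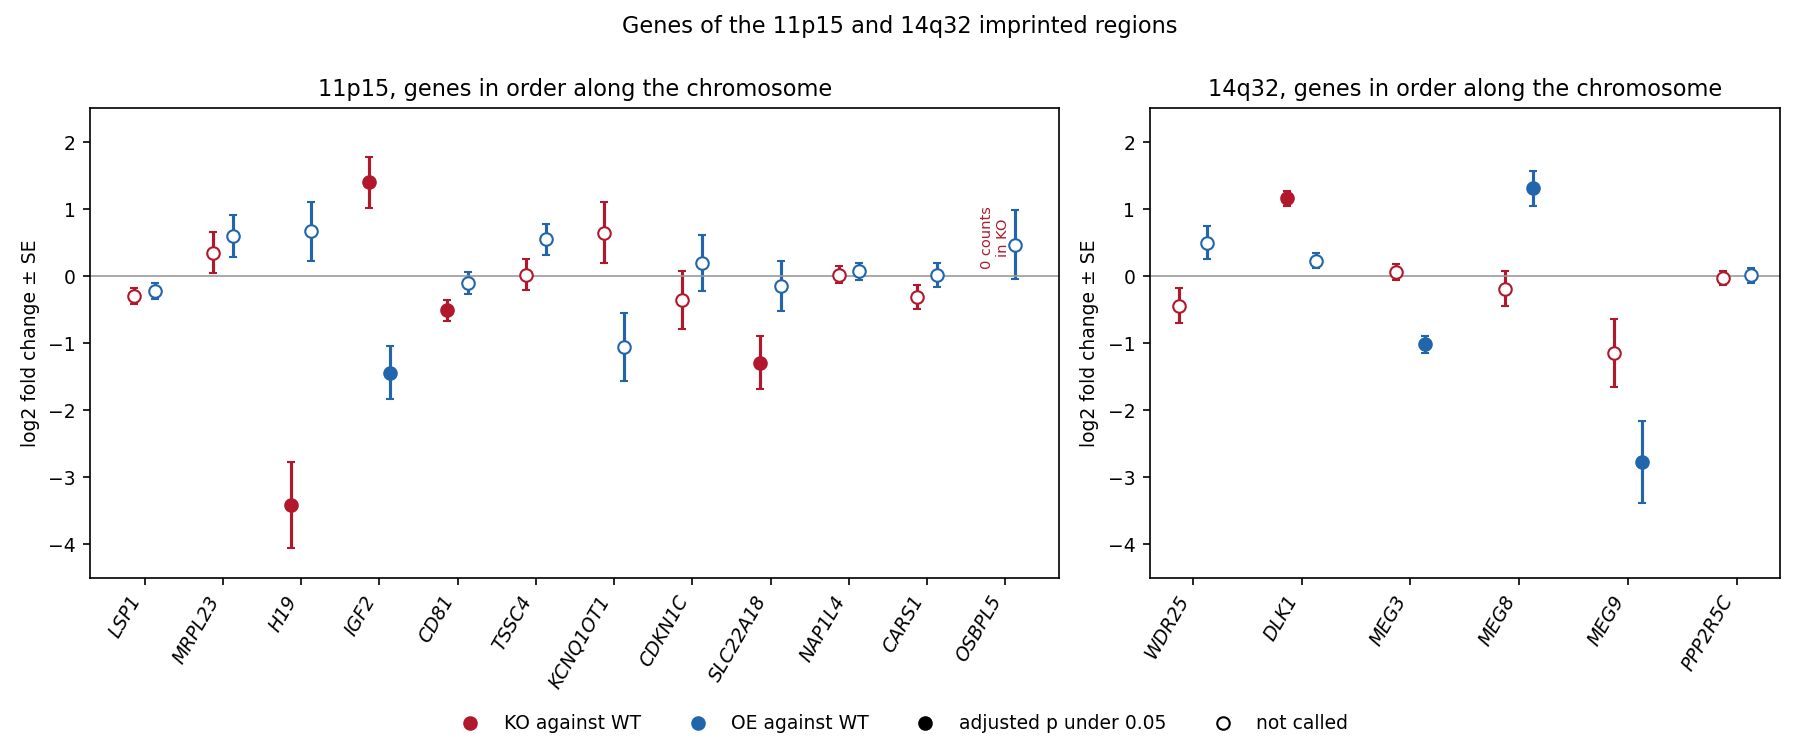
Log2 fold change ± SE (y axes) of the tested genes of 11p15 and 14q32 in order along each chromosome, for KO against WT (red) and OE against WT (blue). Filled points passed an adjusted p of 0.05, H19 (-3.41) and IGF2 (1.40) part ways in KO, and MEG8 (1.31) parts from MEG3 and MEG9 in OE.

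Genes next to MEST, PEG3 and IGF2R were also counted. Of 16 found, 8 passed the filter and none of the 8 was called by edgeR in KO against WT (median 0.41), with 3 at an unadjusted p under 0.05 and 0 by DESeq2 or limma-voom. For OE against WT 1 fell (median -0.23), COPG2IT1, a non-coding RNA beside MEST, with 0.440, 0.277 and 0 CPM in OE and 1.58, 0.367 and 1.73 CPM in WT (-2.38 ± 0.82, edgeR adjusted p = 0.0483, a call lost with the length correction, 0.0586, or limma-voom, 0.0745, and without WT replicate 1 or 3, any 1 KO replicate, or OE replicate 2 or 3, with adjusted p up to 0.178). It was also lower in OE than in KO (-3.18 ± 0.77, adjusted p = 0.0037), as was SLC22A3, an organic cation transporter gene beside IGF2R (-0.36 ± 0.12, adjusted p = 0.0287, lost with no filter, 0.0608, with WT and OE replicate 2 both left out, 0.0739, and without any 1 KO replicate or OE replicate 2 or 3, with adjusted p up to 0.135).

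Of 29 imprinted genes elsewhere in the genome, 27 were in the files and 19 passed the filter. In KO against WT 5 rose and 2 fell (median 0.12), beside 9.16% and 9.6% of all genes tested. SGCE, paternally expressed beside PEG10 on chromosome 7, had 150.3, 156.4 and 158.4 CPM in KO, 73.1, 71.2 and 71.2 CPM in OE, and 67.5, 74.1 and 58.7 CPM in WT, a rise of 1.22 ± 0.12 (edgeR adjusted p = 3.01e-06). Its neighbour PEG10 averaged 1800.3 ± 309.0 CPM in KO, 950.5 ± 145.0 CPM in OE and 1070.8 ± 264.0 CPM in WT, a rise of 0.75 ± 0.17 (adjusted p = 0.00437). PLAGL1, a zinc finger regulator of growth genes, averaged 323.9 ± 13.5 CPM in KO, 167.2 ± 22.6 CPM in OE and 169.7 ± 6.75 CPM in WT (0.93 ± 0.12, adjusted p = 2.85e-05). For all 3, KO lay above every other library. ATP10A, a phospholipid flippase gene, also rose (1.41 ± 0.26, adjusted p = 0.000986), as did PPP1R9A, beside SGCE (0.67 ± 0.21, adjusted p = 0.0368). The falls were GRB10 and GNAS, the stimulatory G protein gene (-0.42 ± 0.10, adjusted p = 0.00716). The PPP1R9A and GNAS values in KO against WT were not checked under the alternatives.

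Among the 19, 1 rose and 3 fell in OE against WT (median -0.02). TP73, a relative of p53, was at -1.30 ± 0.25 (edgeR adjusted p = 0.00257), PPP1R9A at -0.74 ± 0.23 (adjusted p = 0.0305) and BLCAP at 0.40 ± 0.13 (adjusted p = 0.0451). GNAS was at -0.39 ± 0.10 (adjusted p = 0.0135), but at 0.02 with the length correction. The PPP1R9A call was lost with the length correction (-0.38, adjusted p = 0.167), limma-voom (0.0609) and OE and WT alone (0.0544), and without WT replicate 1 or 3 or OE replicate 2 or 3 (adjusted p up to 0.18). That of BLCAP was at 0.61 with the length correction (adjusted p = 0.00465) but lost with library totals (0.144), no filter (0.0539), OE and WT alone (0.0667), or WT and OE replicate 2 both left out (0.0575), and without WT replicate 1 or 3, KO replicate 1 or 2, or OE replicate 1 or 2 (up to 0.164), and that of GNAS without WT replicate 1 (0.0806) or 3 (0.0596). In OE against KO 2 rose and 9 fell (median -0.19), beside 19% and 20.6% of all genes tested. Among the falls were SGCE (-1.11, and -0.57 with the length correction), PLAGL1 (-0.95), PEG10 (-0.92) and PPP1R9A (-1.41).

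The genes whose pattern over the 9 libraries was closest to 3 of the 10 were found by the root mean square difference of centred log2 CPM, among genes with a mean of at least 10 CPM. For DLK1 these were MSX1 (0.09), PSKH1 (0.13) and TSPAN9 (0.13). MSX1, a homeobox factor, averaged 175.3 CPM in KO, 89.8 CPM in OE and 75.3 CPM in WT. For IGF2 they were TENM1 (0.43), ARAP2 (0.48) and HSPG2 (0.49), and HSPG2, the basement membrane proteoglycan perlecan, averaged 94.3 CPM in KO, 13.4 CPM in OE and 68.7 CPM in WT. For H19 they were EGFL7 (0.44), LINC01451 (0.46) and RNF182 (0.49), and EGFL7 averaged 11.5 CPM in KO, 65.3 CPM in OE and 66.3 CPM in WT. The differences for IGF2 and H19 were over 3 times those for DLK1, so their nearest genes follow them only loosely. Likeness over 9 libraries of 3 groups is a description.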

How the data were processed

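RNA of H295R cells was poly-A selected and random primed, and 9 libraries were sequenced. The deposited values are raw counts per gene made by the authors with featureCounts 1.5.2 on Ensembl 101 (GRCh38), per the file headers. The submitters' processing notes name FastQC, HISAT2 1.03, Subread, featureCounts 0.1.0 and DESeq2. The command in the header sets no pairing or strand option, so each read was counted, without strand, and reads on more than 1 gene or place were left out. Reads from a gene and an antisense or near-identical gene therefore cannot be told apart or were lost. Of the low counts from 1 to 6, 67.6% were even, as when both reads of a pair are counted, so counts overstate the number of fragments. No samples were left out, and no 2 libraries of a group agreed within sampling noise (chi-square per degree of freedom 4.48 to 17.9).

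Genes passing filterByExpr (minimum count 10; 14150 of 60671) were fitted over all 9 libraries with edgeR 4.0.16 (R 4.3.3), TMM scaling and the quasi-likelihood test, with Benjamini-Hochberg adjustment over all genes tested and a threshold of 0.05. Fold changes are log2 ± SE, levels are CPM of the TMM-scaled total as mean ± SD, and CPM per kb uses exon bases shared with no other gene. The fit was tested on simulated data. The length correction adds a smooth trend on log2 exon length to each library's offset. Its lengths are all annotated exon bases, also those shared with other genes, which gave no counts. Of these bases, 1744 of 6259 are unshared for IGF2 and 4792 of 9769 for PEG3. Ratios of 2 genes were compared with exact permutation tests; the planned H19 to IGF2 ratio was undefined for a KO library at 0, so 1 count was added there. Alternatives were RLE scaling, library totals, no filter, DESeq2 1.42.0, limma-voom 3.58.1, only the 2 groups compared, a replicate block, the length correction, each library left out, and, chosen after seeing the data, WT and OE replicate 2 left out together and counts divided by 2. The genes and lists were chosen with earlier results of these data known. Named were all 10 genes, up to 4 genes with the smallest adjusted p per list and comparison, all tested genes of 11p15 and 14q32, and the 3 nearest genes of IGF2, H19 and DLK1. INSR, NOTCH2, JAG1, PPP1R9A and GNAS in KO against WT were added after their values were seen. So were NOTCH2 in OE against WT, COL1A1 in KO and OE against WT, and values of named genes in other comparisons. These added values were not checked under the alternatives. The value of 1 chromaffin marker is not reported here.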

Additional observations from a re-analysis of the deposited data

How the results depend on the processing

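Over the 10 genes and 3 comparisons, 509 of 567 values by alternative kept their direction and side of the threshold, 32 lost a call, 19 gained one and 7 changed sign. H19 and DLK1 in KO against WT, MEG3, PEG3 and IGF1R in OE against WT, and all 7 calls of OE against KO held under every alternative run. Of the 10 genes, 2 fell in KO against WT with library totals, with no filter and with the replicate block, and 5 rose with no filter, limma-voom, the replicate block and the length correction. There, 18.6% of all genes were called with library totals, 10.8% with no filter and 18.8% with limma-voom. The share was 22.9% with the replicate block and 22.6% with the length correction. In OE against WT 0 rose with library totals and with only the 2 groups compared (edgeR adjusted p; MEST at 0.163 and 0.0735). Leaving out 1 library, 1 to 5 rose and 1 to 2 fell in KO against WT, and 0 to 1 rose in OE against WT. Among the falls in OE against WT, those of IGF2 and IGFBP2 were lost when some single libraries were left out. The cause was not tested.

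The replicate block called 1622 genes higher and 1613 lower in KO against WT, 1820 and 1937 in OE against WT, and 2929 and 3206 in OE against KO. Same-numbered libraries had correlations of deviations of -0.14 to 0.25, so the numbers were not taken to pair the samples.

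Of the differences that changed sign, GNAS in OE against WT was the 1 that was called. With library totals, TSSC4 (-0.03) and NAP1L4 (-0.03) turned in KO against WT, NAP1L4 (-0.06), CARS1 (-0.11) and PPP2R5C (-0.11) in OE against WT, and NAP1L4 (-0.03), PPP2R5C (-0.02) and MEST (-0.06) in OE against KO. With no filter SGPL1 in OE against WT was 0.01. With limma-voom TSSC4 in KO was -0.01 and CARS1 in OE 0.00, and with the replicate block TSSC4 in KO was -0.02. With the length correction GNAS (0.02), CD81 (0.10) and SGPL1 (0.18) turned in OE against WT, and MEST in OE against KO (-0.03). With WT and OE replicate 2 left out, MEG3 in KO was -0.02, OSBPL5 (-0.13), CARS1 (-0.06) and SGPL1 (0.01) turned in OE against WT, and MRPL23 (-0.02) and NAP1L4 (-0.06) in OE against KO. Leaving out 1 library, KO against WT ran from -0.02 to 0.12 for MEG3, -0.04 to 0.12 for NAP1L4, -0.08 to 0.05 for PPP2R5C and -0.22 to 0.20 for TSSC4. OE against WT ran from -0.11 to 0.10 for CARS1, -0.28 to 0.03 for CD81, -0.02 to 0.43 for CDKN1C, -0.05 to 0.18 for NAP1L4, -0.05 to 0.83 for OSBPL5, -0.06 to 0.08 for PPP2R5C, -0.08 to 0.09 for SGPL1 and -0.39 to 0.04 for SLC22A18. OE against KO ran from -0.01 to 0.15 for LSP1, -0.05 to 0.06 for MEST, -0.02 to 0.43 for MRPL23, -0.06 to 0.13 for NAP1L4 and -0.04 to 0.12 for PPP2R5C. At 8006873 to 10895080 counts per library, H19, CDKN1C, MEG9, COPG2IT1 and OSBPL5 rest on few reads.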
